A study of Mus musculus with 4 samples.

Results

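The genes described here are the collagens and the proteins that cross-link, organise, cleave and protect the extracellular matrix of fat. They were chosen by gene symbol alone. Every non-control probe was taken whose symbol was a collagen chain (Col, a number, a and a number), began with Mmp, Timp or Adamts and a number, or was one of 12 single genes (Fn1, Sparc, Lox, Loxl1, Loxl2, Postn, Tnc, Dcn, Lum, Bgn, Eln and Fbn1). This gave 101 genes of 34844 gene names on the array, measured by 152 of 55681 probes, namely 43 collagen chains, 23 metalloproteinases, 4 inhibitors, 19 ADAMTS proteases and the 12 single genes. ASK1 is a stress-activated MAP kinase kinase kinase encoded by Map3k5, and the study compared C57BL/6J mice that lack it in the whole body with WT mice, in interscapular brown adipose tissue (iBAT) and epididymal white adipose tissue (eWAT). There were 4 groups, iBAT and eWAT of WT and of ASK1-deficient mice, and each was a single one-colour array hybridised with a pool of RNA from 3 males that were 10 weeks old. The 2 genotypes were kept as separate breeding lines, so that genotype and line cannot be told apart.

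The extracellular matrix of fat is a meshwork around each adipocyte. Fibrillar collagens give it tensile strength, and collagen IV, with laminins and nidogens, forms the basement membrane that encloses the adipocyte. Collagen VI microfibrils lie at the border of these layers. Fibronectin, fibrillin and elastin provide adhesion and recoil, lysyl oxidases cross-link the fibres and small proteoglycans such as decorin set their spacing. Matrix metalloproteinases and ADAMTS enzymes cut these proteins, and the tissue inhibitors of metalloproteinases (Timps) block that cutting. In fat, fibroblasts and adipocyte progenitors are a main source of fibrillar collagen, and adipocytes and endothelial cells contribute to the basement membrane.

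All values are the processed signal of the scanner software divided by the 75th percentile of its array, here called scaled signal, so that 1 marks that percentile. For iBAT that percentile was a signal of 356 (WT) and 371 (ASK1-deficient), and for eWAT 673 and 634. A log2 ratio is the difference of 2 arrays on this scale, averaged over the probes of a gene that were well above background on both. Levels of different genes cannot be set against each other, since each probe has its own response. Of the 101 genes, 59 had a probe well above background on all 4 arrays, 19 on some of them and 23 on none, and no spot was saturated. Between repeated spots of a probe, the SD of the log2 ratio had a median of 0.059 to 0.087 over the 4 comparisons and says nothing of the spread between mice. Map3k5 had 2 probes. One, on chromosome 10 of mm9 from 19860474 to 19861330, had a log2 ratio between ASK1-deficient and WT of -2.002 in iBAT and -1.76 in eWAT, and the other had -0.06 and -0.51. The tissue labels were matched by brown adipocyte markers, whose summed scaled signal was 2352 and 1914 in iBAT and 31.1 and 12.3 in eWAT. Because whole tissue was extracted, fewer cells of a type and less RNA per cell cannot be told apart in any value below.

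Much of the metalloproteinase family lies in a single block on chromosome 9, and this block held 6 of the 10 that were not well above background on any array. It runs from chr9:7272514-7699585 on GRCm38.p6 and holds 10 of the 23 Mmp genes. Of these, 4 were above background on at least 1 array, in 3 different patterns. Mmp3 (stromelysin-1) was above background on all 4 arrays, Mmp12 (macrophage elastase) and Mmp27 on the eWAT arrays only, and Mmp7 (matrilysin) only on the array of ASK1-deficient eWAT. The block is also where the promoters share a sequence. The letters TGANTCA were found in the RefSeq promoters (250 bases before to 50 after the start) of 8 of these 10 genes. With N as any base, they read the same on both strands. They cover TGAGTCA and TGACTCA, the known binding sequences of AP-1, and also forms with A or T at N. Over all members with a promoter in the RefSeq table, 9 of 80 promoters held them (11.2%), the ninth being that of Col6a1, beside 7.81% of all 32851 promoters. The 120 bases before the start are shown for the 3 members of the block with a different pattern each and for Mmp13 (collagenase-3), whose probe was not well above background on any array. Capitals mark the TGANTCA match, and all 4 genes are on the plus strand.
Mmp3, chr9:7445702-7445821, all 4 arrays: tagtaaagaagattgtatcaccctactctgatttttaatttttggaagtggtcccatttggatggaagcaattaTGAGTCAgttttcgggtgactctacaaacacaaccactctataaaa
Mmp12, chr9:7347254-7347373, eWAT only: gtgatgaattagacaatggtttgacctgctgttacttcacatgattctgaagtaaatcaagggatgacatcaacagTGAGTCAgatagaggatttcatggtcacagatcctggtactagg
Mmp7, chr9:7691970-7692089, ASK1-deficient eWAT only: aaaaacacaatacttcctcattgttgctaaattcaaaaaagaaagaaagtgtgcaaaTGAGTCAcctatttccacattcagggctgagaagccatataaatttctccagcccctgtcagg
Mmp13, chr9:7272394-7272513, no array: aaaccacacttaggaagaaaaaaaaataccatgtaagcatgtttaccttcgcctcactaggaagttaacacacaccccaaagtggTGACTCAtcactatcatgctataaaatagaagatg
Mmp3, Mmp7 and Mmp12 carry TGAGTCA and Mmp13 carries TGACTCA, so promoters with a TGANTCA match belonged to genes seen on all, some or none of the arrays. Of the other motifs searched on both strands, TATAAA was in 23.8% of member promoters and 13.6% of all, with 9 of the 10 genes of the block holding it. CCAAT was in 30.0% of member promoters and 37.4% of all. A match is a description of the letters only, and Mmp7 and Mmp12 each have another RefSeq start without the motif.

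Most matrix genes were lower in iBAT than in eWAT, in both genotypes. In WT, 35 of 61 measured members were at least 2-fold lower in iBAT and 6 at least 2-fold higher, where 13.4% and 16.4% of all 14228 genes were. Among ASK1-deficient mice, whose arrays were not used for the WT values, 30 of 60 were at least 2-fold lower and 5 higher, beside 12.6% and 12.3% of 14506 genes. Of the 59 members measured in both genotypes, 28 were at least 2-fold lower in both and 5 at least 2-fold higher in both, beside 10.4% and 10.9% of 14050 genes. The median log2 ratio of the members was -1.31 in WT and -1.02 in ASK1-deficient mice, against 0.12 and 0.026 for all genes. Genotype and tissue were then fitted together over the 4 arrays with limma, where the tissue difference has 1 residual degree of freedom. Its error joins the gene's own gap between genotypes to an SD of 0.158 pooled over all genes, which counts as 5.21 degrees of freedom. The pooled part thus outweighs the gene's own, and neither is the spread between mice. At an adjusted p under 0.05, 42 of 59 members fell in iBAT and 11 rose, against 24.6% and 30.8% of 14049 genes. Without scaling between the arrays the split was 49 lower and 5 higher, beside 68.2% and 9.15% of all genes, whose median then moved from 0.07 to -0.77. Of the 11 members called higher, 6 had a negative value without scaling (Adamts8, Col23a1, Col4a6, Col9a2, Mmp15 and Postn, named after their values were seen), and relative to the median of all genes these were still higher, by 0.35 to 0.59. With 3 arrays no genotype term can be fitted, so each array was left out of a fit on tissue alone, in which a tissue of 1 array is assumed to vary like the other. Fewer members were called in each direction without either eWAT array than with all 4 arrays. This loss was not set beside all genes and is not read as a trait of the members. Fibroblast and progenitor markers, 7 of 7 above background on every array, moved with these genes, with a summed scaled signal of 37.2 and 43.5 in iBAT and 123 to 129 in eWAT. Macrophage markers (8 of 8 above background) summed to 43.3 and 55.0 in iBAT and 163 to 171 in eWAT. Mesothelial markers, with 1 or 2 of 5 above background in iBAT and 5 of 5 in eWAT, summed to 0.27 to 0.29 and 27.5 to 32.5. Skeletal muscle markers went the other way, with 764 and 759 in iBAT and 26.8 and 25 in eWAT. The part of these cell types in the matrix difference was not tested.

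**Figure D1:**
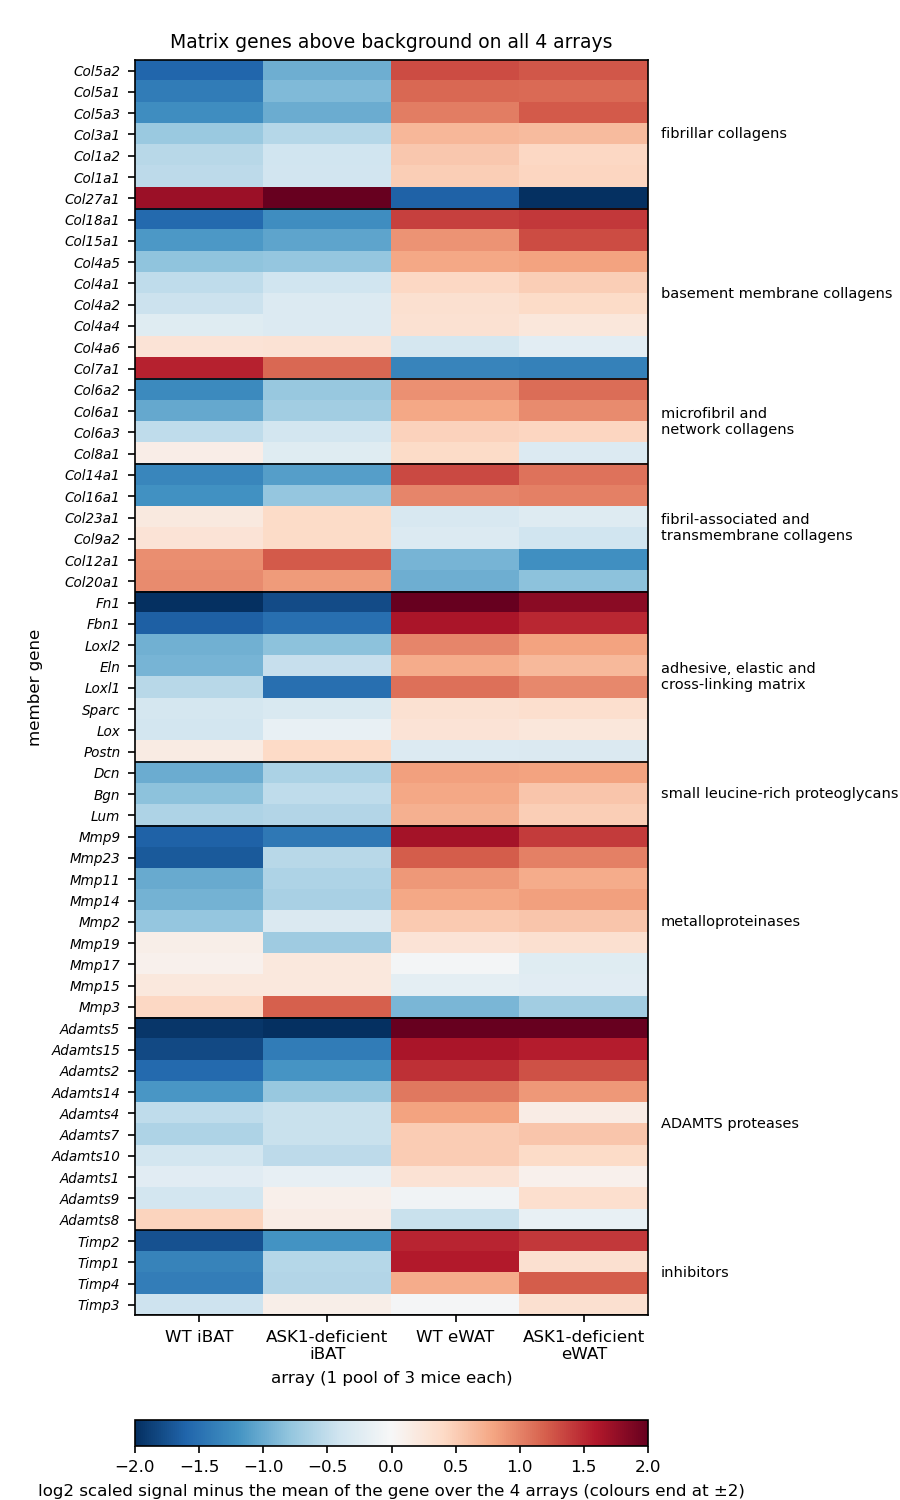
Heat map of the 59 members above background on all 4 arrays (rows, grouped by role), with 1 column per array; colour is the log2 scaled signal minus the mean of that gene over the 4 arrays, with blue below and red above it and colours ending at 2 either way. Most rows are blue on both iBAT arrays and red on both eWAT arrays, and the exceptions include Col27a1, Col7a1, Col12a1, Col20a1 and Mmp3.

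Among fibrillar collagens, the major chains of fat were lower in iBAT by modest factors, and collagen V by more. Col1a1, a chain of type I collagen, had a scaled signal of 17.5 (WT) and 19.4 (ASK1-deficient) in iBAT, and 35.5 and 33.9 in eWAT. Its partner Col1a2 gave 56.7, 62.9, 121 and 111 in the same order, and Col3a1 (type III) 28.1, 31.8, 74.6 and 72.8. For all of these the 2 iBAT values lay below the 2 eWAT values. The limma log2 difference was -0.91 ± 0.15 (SE, n = 2 arrays per tissue, limma adjusted p = 0.0031) for Col1a1, -0.96 ± 0.15 for Col1a2 and -1.30 ± 0.15 for Col3a1. Col5a1, which starts fibril assembly, gave 1.71, 2.44, 9.91 and 9.85, a 4.85-fold difference. In the whole group 6 of the 7 tested fibrillar chains fell and 1 rose, beside 24.6% and 30.8% of all genes. The one that rose was Col27a1, a fibrillar chain best known from cartilage, at 0.96 and 1.25 in iBAT against 0.096 and 0.065 in eWAT. It was 13.96-fold higher in iBAT (log2 3.80 ± 0.24, limma adjusted p = 7.67e-05), the largest rise of any member tested. Over the settings and fits tried, this log2 difference ran from 2.70 to 4.09. Col11a2, another cartilage chain, was 0.29 and 0.22 in iBAT and 0.043 in WT eWAT, and it was not well above background in ASK1-deficient eWAT, so that its rise in iBAT was 6.76-fold in WT and bounded at 6.19-fold or more in ASK1-deficient mice. Collagen II (Col2a1) was not well above background anywhere, and of 4 other cartilage markers 1 to 3 were above background per array with a summed scaled signal of 0.18 and 0.35 in iBAT and 0.90 and 0.63 in eWAT.

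Basement membrane collagens differed among themselves. Col4a1 and Col4a2, the chains of the common collagen IV network, were 17.5 and 18.8 in WT iBAT and 33.4 and 31.8 in WT eWAT, with log2 differences of -0.91 and -0.71 in the joint fit. Col18a1, the source of endostatin, and Col15a1 differed more, by 6.92-fold (2.32 and 2.90 in iBAT, 17.6 and 18.3 in eWAT) and 4.60-fold (0.10 and 0.11, 0.42 and 0.55). Over the settings and fits tried, the log2 difference of Col15a1 ran from -3.05 to -1.09. Col7a1, the anchoring fibril collagen, ran against them with 2.79 and 2.13 in iBAT and 0.38 on both eWAT arrays, a log2 difference of 2.68 ± 0.16 (limma adjusted p = 6.68e-05). Of the 8 chains tested, 6 fell and 2 rose, beside 24.6% and 30.8% of all genes. The other one that rose was Col4a6, at a log2 difference of 0.56.

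The Col4a6 value depended on the probe, and so the pair of probes is shown by their first 30 bases, read from the array file, with positions on mm9 and the gene on the minus strand.
Col4a6 probe 1, chrX:137599990-137600049: ggcaaagcataacaagtacattctgagctc
Col4a6 probe 2, chrX:137601433-137601491: cagtccctaatctcccctggctcgtgtctt
Probe 1 had a scaled signal of 1.15 (WT) and 1.09 (ASK1-deficient) in eWAT and was not well above background on either iBAT array, so the bounds on its fall in iBAT were 20.9-fold in WT and 19.9-fold in ASK1-deficient mice. Probe 2 gave 0.35 on both iBAT arrays and 0.22 and 0.25 on the eWAT arrays. The probes of this gene thus pointed in opposite directions, and its rise in the joint fit rests on probe 2 alone. No protein or transcript sequence was used to place the probes in exons.

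The collagen VI chains that were detected were lower in iBAT, and of these Col6a5 and Col6a6 were detected in eWAT alone. Col6a4 was not well above background on any array. Col6a1 gave 12.4 and 15.4 in iBAT and 43.0 and 48.1 in eWAT, Col6a2 gave 0.53 and 0.76 against 2.43 and 2.78, and Col6a3, the chain that releases endotrophin, gave 10.2 and 11.2 against 20.0 and 19.5. These were folds of 3.29, 4.08 and 1.85 in the joint fit. Col6a5 had the largest bound of all members, at 3.33 and 2.43 in eWAT by its brighter probe (chromosome 9 of mm9, 105765145 to 105766504) and not well above background in iBAT, with bounds of 60.2-fold in WT and 52.1-fold in ASK1-deficient mice. Its dimmer probe gave bounds of 2.42-fold and 1.70-fold. Col6a6 (bounds of 2.90-fold and 3.47-fold at its brighter probe) and the network collagen Col8a2 (4.11-fold and 3.73-fold) were likewise above background in eWAT and in neither iBAT array. Fibril-associated and transmembrane collagens were the one collagen group with more rises than falls, 4 against 2 of 6 tested, and a median log2 difference of 0.62, beside 30.8% and 24.6% of all genes. Without scaling, Col9a2 and Col23a1 were negative (-0.19 and -0.27). Col12a1, a collagen of dense connective tissue and muscle sheaths, was 0.57 and 0.71 in iBAT and 0.16 and 0.13 in eWAT, 4.45-fold higher. Col20a1 was 0.52 and 0.49 against 0.14 and 0.15, 3.49-fold higher. Skeletal muscle markers were also far higher on these arrays, as given above, and their part in the values of Col12a1 and Col20a1 was not tested.

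Fibronectin (Fn1) and fibrillin-1 (Fbn1), which assemble into the fibres that anchor cells and growth factors, had some of the widest gaps. The scaled signal of Fn1 was 5.61 (WT) and 6.87 (ASK1-deficient) in iBAT and 99.8 and 83.6 in eWAT, a 14.7-fold difference (log2 -3.88 ± 0.18, limma adjusted p = 3.06e-05). Fbn1 gave 1.05 and 1.15 against 10.1 and 9.36, and elastin (Eln) 0.17 and 0.23 against 0.53 and 0.50. The lysyl oxidase family followed, with Loxl1 at 2.18 and 1.13 against 6.93 and 6.23, Loxl2 at 0.80 and 0.88 against 3.05 and 2.72, and Lox itself at 0.24 and 0.28 against 0.38 and 0.36. Decorin (Dcn) gave 89.1 and 115 against 313 and 311, biglycan (Bgn) 0.96 and 1.18 against 2.88 and 2.49, and lumican (Lum) 8.19 and 8.38 against 20.6 and 17.8. In each of these 9 genes both iBAT values were below both eWAT values. Periostin (Postn) was the exception of its group, at 7.90 and 9.37 in iBAT against 5.83 and 5.81 in eWAT. It was called higher in iBAT (log2 0.56, limma adjusted p = 0.021), and was at -0.28 without scaling, 0.49 above the median of all genes there. Sparc, a collagen-binding protein, fell by 0.64 on the log2 scale as a mean of 2 probes of unequal response. One gave 31.7 and 35.2 in iBAT and 70.9 and 79.7 in eWAT, the other 500.2 and 481 against 548 and 516. With the brighter probe alone its log2 difference was -0.12 and no longer passed the test. In the fit on tissue alone, which called all of these genes with 4 arrays, the calls of Sparc, Lox, Postn and Col4a6 were lost without either eWAT array, and that of Col4a2 without the ASK1-deficient one. Tenascin C (Tnc) was at or near background, never above it on both arrays of a comparison at the same probe, and its bounds ran from 1.07-fold to 1.73-fold.

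The proteases showed the same direction, with exceptions. Adamts5, an aggrecan- and versican-cleaving enzyme, had a scaled signal of 0.20 and 0.18 in iBAT and 3.21 and 3.098 in eWAT, a 16.7-fold difference (log2 -4.06 ± 0.15, limma adjusted p = 1.57e-05) and the largest fall of any member tested. Adamts15 was 0.47 and 0.62 against 5.12 and 4.86, 9.22-fold lower. Adamts16 was above background in eWAT and in neither iBAT array, with bounds of 4.19-fold in WT and 4.18-fold in ASK1-deficient mice. Adamts12 had bounds of 2.51-fold and 3.58-fold at its 2 probes in WT. Without ASK1, the first of these probes had a bound of 4.25-fold, and the second was measured on both arrays with a log2 ratio of -1.58. Of 10 ADAMTS genes tested, 7 fell and 1 rose, beside 24.6% and 30.8% of all genes. The one that rose was Adamts8, by 1 of its 2 probes (log2 0.59). Its other probe was above background in eWAT alone and pointed the opposite way. That probe was lower in iBAT by at least 1.54-fold (WT) and 1.90-fold (ASK1-deficient). Mmp9 (gelatinase B) was 0.086 and 0.097 in iBAT and 0.83 and 0.69 in eWAT, 8.30-fold lower (log2 -3.05). Over the settings and fits tried, this log2 difference ran from -3.90 to -1.74. Mmp2 (gelatinase A) was 1.87 and 2.61 against 4.61 and 4.68, and its activator Mmp14 was 0.27 and 0.33 against 0.89 and 0.92, folds of 2.11 and 3.02. Mmp12 was not well above background in iBAT and 0.23 on both eWAT arrays, lower by at least 4.12-fold (WT) and 4.91-fold (ASK1-deficient), and Mmp27 had bounds of 2.42-fold and 2.74-fold. Mmp3, whose promoter is shown above, was the opposite, at 0.52 and 0.90 in iBAT and 0.21 and 0.24 in eWAT, 3.04-fold higher (log2 1.61 ± 0.19, limma adjusted p = 0.00072). Of the 23 metalloproteinases, 9 could be tested, of which 5 fell and 2 rose, beside 24.6% and 30.8% of all genes, and 10 were not well above background on any array.

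Of the 4 inhibitors, 3 were called lower in iBAT and 0 higher, beside 24.6% and 30.8% of all genes. Timp2, the inhibitor that also takes part in activating Mmp2, was 5.18 and 7.59 in iBAT and 49.9 and 46.3 in eWAT, 7.67-fold lower. Timp4, the inhibitor most typical of fat and heart, was 7.36 and 12.9 against 32.2 and 44.6, 3.89-fold lower. Timp3, which binds to the matrix, differed least, at 24.1 and 34.7 against 31.4 and 39.7 (log2 -0.29 ± 0.15, limma adjusted p = 0.15). Its iBAT and eWAT values overlapped, and it passed the test with normexp, quantile, loess or no normalization (log2 -0.37, -0.55, -0.53 and -1.13). The tissue difference of Timp1 was unlike in the 2 genotypes, as described below, which rests on 1 array per group and was not tested. It was 7.59-fold lower in iBAT in WT and 1.85-fold lower in ASK1-deficient mice, and its joint value of -1.90 ± 0.43 (limma adjusted p = 0.011) lost its call in the fit on tissue alone without the WT iBAT array (limma adjusted p = 0.093).

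**Figure D2:**
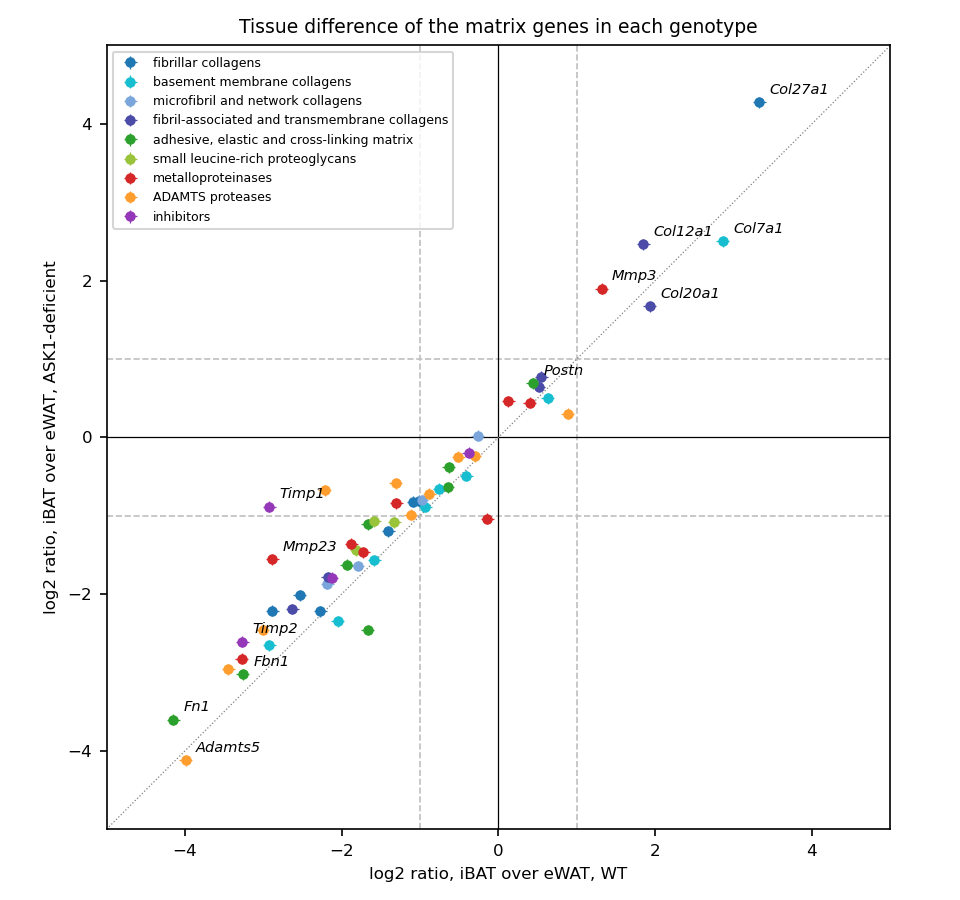
Log2 ratio of iBAT over eWAT for the 59 members measured in both genotypes, WT on the horizontal axis and ASK1-deficient on the vertical, coloured by role; bars are the median SD between repeated spots, dashed lines mark 2-fold and the dotted line equal values. The points lie along the dotted line, with Fn1 and Adamts5 lowest, Col27a1 highest, and Timp1 and Mmp23 further from 0 in WT.

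The tissue differences of the 2 genotypes were then set side by side. Across the 59 members measured in both, which are genes and not replicates, Pearson's r between the WT and the ASK1-deficient log2 ratios was 0.957, beside 0.929 over all 14050 genes, and 58 members had the same sign (98.3%, beside 86.6% of all genes). The WT and ASK1-deficient tissue ratios share no array. Mmp23, a membrane-anchored metalloproteinase, was 7.40-fold lower in WT iBAT and 2.95-fold lower in ASK1-deficient iBAT.

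Between genotypes, few matrix genes in iBAT were far apart, but most leaned the same way. Of 60 members measured, 1 was up by 2-fold or more without ASK1, beside 0.835% of all 14369 genes, and 0 were at least 2-fold lower, beside 1.02%. The one was Mmp23, with a scaled signal of 0.73 (WT) and 1.58 (ASK1-deficient) and a log2 ratio of 1.12, which was under 2-fold with normexp background correction. A log2 ratio above 0 was found for 49 of the 60 members, beside 40.4% of all genes. The median of the members was 0.19 and that of all genes -0.067. Between 43 and 52 members were above 0 under the scalings, probe rules and filters tried for probes above background, and the gap between the medians stayed at 0.23 to 0.28. Without the filter on dim probes, 62 of 101 were above 0, with a gap of 0.26. With 1 array per genotype no test is possible within the tissue, and the spread between mice is unknown. All 4 inhibitors were higher, Timp1 at 0.20 (WT) and 0.34 (log2 ratio 0.77), Timp2 at 5.18 and 7.59 (0.55), Timp3 at 24.1 and 34.7 (0.53) and Timp4 at 7.36 and 12.9 (0.80). The fibrillar chains were above 0 in 7 of 8 cases with a median of 0.21, and Col5a1 was among the higher ones at 0.51, whereas Col1a1, Col1a2 and Col3a1 were at 0.14 to 0.17. Collagen VI chains had 0.32 (Col6a1), 0.51 (Col6a2) and 0.14 (Col6a3). Basement membrane collagens had a median of 0.068, with Col4a1 at 0.12 and Col7a1 at -0.39. Fn1 stood at 0.29, Dcn at 0.36, Eln at 0.46, Fbn1 at 0.13 and Bgn at 0.30. Mmp3 had 0.79, Mmp2 0.48 and Mmp14 0.31.

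A few members went the other way in iBAT. Loxl1, a lysyl oxidase-like enzyme needed for elastic fibres, had 2.18 (WT) and 1.13 (ASK1-deficient), for a log2 ratio of -0.94, and its 2 probes gave -0.94 and -0.95. Under median centring it passed 2-fold. Mmp19, which was chosen after its values were seen, had 0.67 (WT) and 0.38 (ASK1-deficient), for a log2 ratio of -0.84. Adamts5 had 2 probes of opposite sign, 0.37 and -0.73. Macrophage markers were above 0 in 8 of 8 cases in ASK1-deficient iBAT with a median log2 ratio of 0.69, and fibroblast and progenitor markers in 5 of 7 with a median of 0.25. Brown adipocyte markers were below 0 in 4 of 4, with a median of -0.37, and endothelial markers had a median of 0.048. The part of these cell types in the matrix values was not tested.

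**Figure D3:**
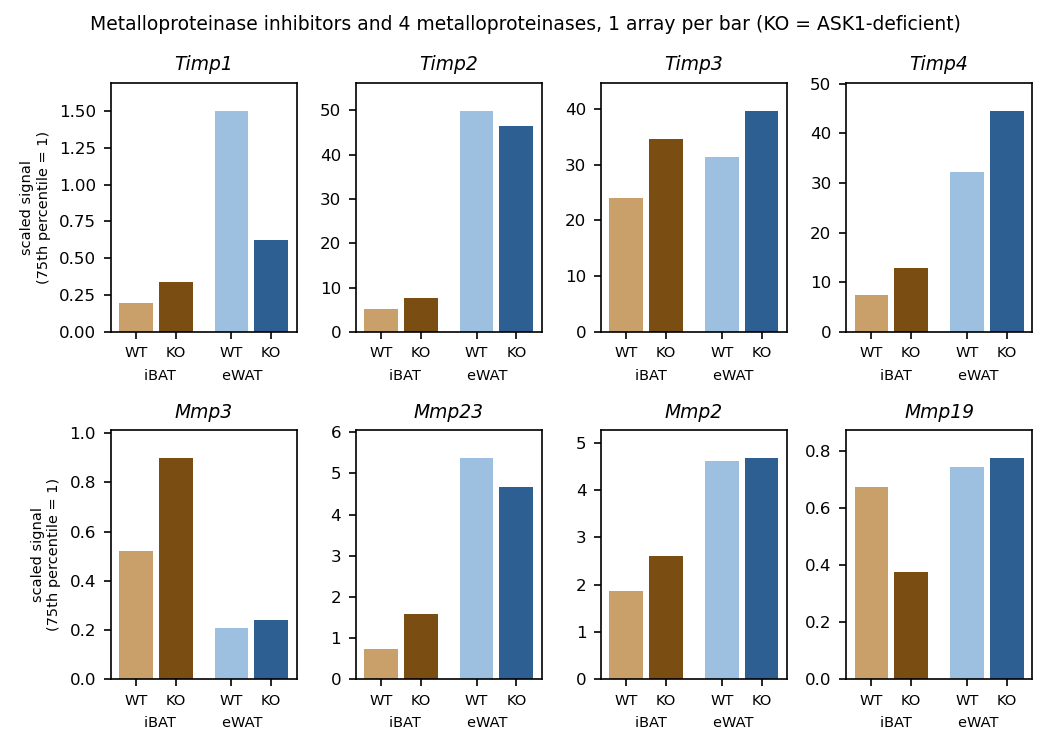
Scaled signal (75th percentile of the array = 1, linear axis from 0) of the 4 Timp genes and of Mmp3, Mmp23, Mmp2 and Mmp19, with 1 bar per array. Each Timp bar is higher in ASK1-deficient than in WT iBAT, and Timp1 is lower in ASK1-deficient (0.62) than in WT eWAT (1.502).

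In eWAT more members lay below 0 than above between genotypes, by small amounts. Of 70 measured, 0 were up by 2-fold or more without ASK1, beside 0.286% of all 15371 genes, and 1 was at least 2-fold lower, beside 0.865%. That one was Timp1, an inhibitor made under inflammatory and growth stimuli, whose single probe (chromosome X of mm9, 20451802 to 20451861) had a scaled signal of 1.502 (WT) and 0.62 (ASK1-deficient). Its log2 ratio was -1.27. The members were above 0 in 28 of 70 cases, beside 54.1% of all genes, and this count ran from 14 to 32 under the scalings, probe rules and filters tried for probes above background. Their median was -0.039 against 0.015, and the gap was below 0 under each of these settings (-0.070 to -0.049). Without the filter on dim probes, 55 of 101 members were above 0, with a gap of -0.020. Mmp7, a small secreted protease typical of epithelia, was the one member with a bound of at least 2-fold between the genotypes. It was not well above background in WT and had a scaled signal of 0.18 in ASK1-deficient eWAT, at least 6.41-fold higher. Against ASK1-deficient iBAT its bound was 3.87-fold. Of 4 marker genes of the epididymis, 0 were above background on any array, and the source of the Mmp7 signal was not tested. Col1a1, Col1a2 and Col3a1 had log2 ratios of -0.07, -0.11 and -0.04, Dcn -0.01 and Sparc 0.04. Timp3 and Timp4 were at 0.34 and 0.47, and Col15a1 at 0.40. Fn1 had -0.25. Hepatocyte markers were measured as well, since liver also makes Fn1, and were down by 2-fold or more without ASK1 in 5 of 5 cases (median log2 ratio -4.03, summed scaled signal 45.2 in WT and 8.17 in ASK1-deficient), and their part in the Fn1 value was not tested. Mesothelial markers were below 0 in 5 of 5 cases in eWAT (median -0.25), brown adipocyte markers in 3 of 3 (-0.84), skeletal muscle markers in 5 of 6 (-0.58) and macrophage markers in 7 of 8 (-0.023), while adipocyte markers were above 0 in 4 of 4 (0.083). Their part in the member values was not tested either.

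**Figure D4:**
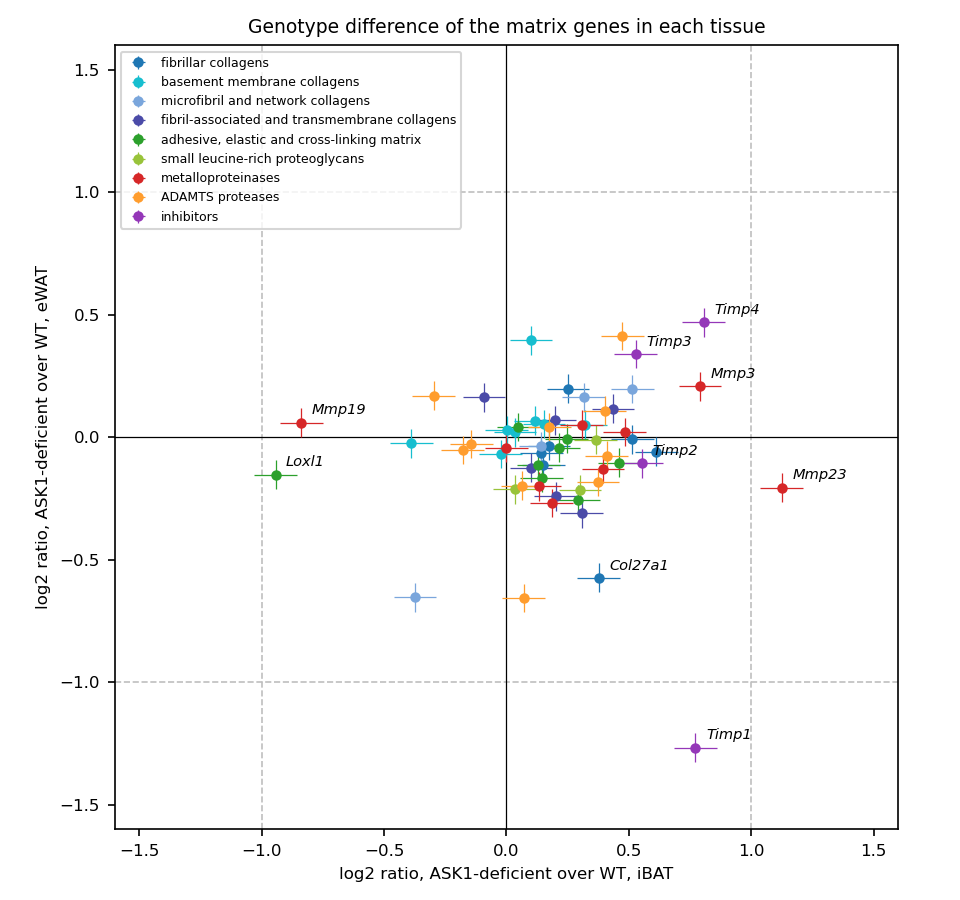
Log2 ratio of ASK1-deficient over WT for the 59 members measured in both tissues, iBAT on the horizontal axis and eWAT on the vertical, coloured by role; bars are the median SD between repeated spots and dashed lines mark 2-fold. Most points lie to the right of 0 and close to 0 on the vertical axis, Timp4 and Timp3 are above 0 in both tissues, and Timp1 is at 0.77 in iBAT and -1.27 in eWAT.

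The genotype ratios of the 2 tissues, which share no array, did not track each other over the members. Pearson's r was 0.021 over 59 genes (0.016 over all 14051), and 27 of the 59 had the same sign (45.8%, beside 49.4% of all genes). In the joint fit, which takes the genotype effect as equal in both tissues, limma called 0 of 59 members and 0% of 14049 genes at an adjusted p under 0.05. At an unadjusted p under 0.05 it passed 6 members, beside 5.47% of all genes. They were Timp4 (log2 0.64 ± 0.16), Mmp3 (0.50 ± 0.19), Timp3 (0.43 ± 0.15) and Loxl1 (-0.55 ± 0.21), with Adamts9 (0.44 ± 0.15) and Col8a1 (-0.51 ± 0.16), which were chosen after their values were seen. The smallest adjusted p among the members was 0.66, for Timp4. The genotype and the tissue ratios use the same 4 arrays and are not set against each other.

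Other genes of the matrix pathway were described from lists of function. Their counts by limma are to be read beside 24.6% lower and 30.8% higher over all genes. Of enzymes and chaperones of collagen processing, 11 of 21 were lower and 1 higher in iBAT. The one that rose was P4ha1, a prolyl hydroxylase subunit, at 1.10 and 0.78 in iBAT and 0.37 and 0.39 in eWAT, while the collagen chaperone Serpinh1 did not pass the test (30.4 and 26.0 against 32.7 and 33.5). Other matrix proteins fell in 19 of 22 cases and rose in 0. Basement membrane glycoproteins fell in 6 of 10 and rose in 1, and the nidogen Nid1 was 0.77 and 0.90 against 3.46 and 4.19. Collagen receptors and integrins fell in 8 of 12 and rose in 2, with Itga11, a collagen-binding integrin of fibroblasts, at 0.68 and 0.73 against 4.24 and 4.18. The plasmin system and cathepsins fell in 10 of 13 and rose in 1. Genes of TGF-beta signalling, the main inducer of collagen transcription, were divided, with 8 of 18 lower and 4 higher. Among the higher was Ltbp2, a microfibril-bound protein of the latent TGF-beta family, at 48.2 and 42.6 against 4.47 and 5.19.

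In ASK1-deficient iBAT these lists differed in how many genes had a log2 ratio above 0, beside 40.4% of all genes. Basement membrane glycoproteins were above 0 in 10 of 10 cases (median log2 ratio 0.26), other matrix proteins in 22 of 23 (0.30), collagen receptors and integrins in 10 of 12 (0.16) and collagen processing in 16 of 21 (0.15), whereas TGF-beta signalling was in 8 of 18 (-0.019) and the plasmin system and cathepsins in 7 of 13 (0.19). At least 2-fold higher, beside 0.835% of all genes, were 2 of 23 other matrix proteins (log2 ratio 1.04 for Thbs2 and 1.26 for Thbs4), 1 of 18 genes of TGF-beta signalling (its target Ccn2, 1.02) and 2 of 13 of the plasmin system and cathepsins (the urokinase receptor Plaur, 1.06, and cathepsin S, Ctss, 1.04), all named after their values were seen. Ctss, which is abundant in macrophages, had 2.18 (WT) and 4.49 (ASK1-deficient). Ccn2 was 0.86 and 1.76 in iBAT and 5.56 and 3.45 in eWAT, so that its iBAT and eWAT ratios were of opposite sign, as for Timp1. In eWAT the medians of the same lists lay between -0.028 and 0.12, and 0 of their genes were 2-fold apart.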

How the data were processed

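RNA of 4 pools was hybridised to 4 Agilent one-colour arrays of the mouse genome, all on 1 slide and in 1 scan. The authors deposited for each array the processed signal of Feature Extraction 10.7.3.1, an intensity on a linear scale with spatial background removed and no scaling between arrays, and a series table whose signal values are that intensity divided by the array's median. Control and outlier spots were left out, spots of a probe were averaged, and log2 values were centred on the 75th percentile. A probe counted as well above background if a majority of its kept spots were so marked by the software. A bound compares the bright value with whichever was greater, the value of the dim probe or the lowest one well above background on the dim array. Symbols were matched to RefSeq genes (22078 of 34844 names), as were all 101 members. Probe positions are those of mm9, and promoters those of GRCm38.p6. Tissue and genotype were fitted with limma 3.58.1 (R 4.3.3) for genes with a probe above background on all 4 arrays, with Benjamini-Hochberg adjustment. Further steps used Python 3.11.15, numpy 2.4.6, pandas 2.3.3 and matplotlib 3.10.9, and were tested on simulated data. The members, lists and alternatives were chosen with earlier results of these data known. Genes named were the 12 single genes, Timp1 to Timp4, major collagens and Mmps, the 5 highest and 5 lowest members of the tissue fit, members 2-fold apart between genotypes and those with a bound of at least 2-fold. The number of arrays limits the precision.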

Additional observations from a re-analysis of the deposited data

Results flagged for a closer look

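Timp1 moved in opposite directions in the 2 tissues by at least 1.5-fold each, and it was the only member that did. Its log2 ratio, ASK1-deficient over WT, was 0.77 in iBAT and -1.27 in eWAT, a difference of -2.04 between the tissues. Each value rests on 1 array per genotype and the difference was not tested.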

How the results depend on the processing

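The joint fit pairs the tissues by genotype. Without that pairing (no replicate block) the members called between tissues stayed at 53, and leaving out 1 array in turn, also without the genotype term, gave fewer. The calls in these fits were not set beside all genes. Between genotypes within a tissue there was 1 array a side and no test. For genotype, 0 members were called under each alternative run. Members at least 2-fold apart between genotypes in iBAT numbered 0 with normexp (0.738% of all genes), 2 with median centring or the series table (1.92% and 1.93%), 6 without the filter on dim probes (5.13%) and 7 at a 1.5-fold threshold (8.78%). In eWAT they numbered 4 without the filter or at the 1.5-fold threshold (4.7% and 4.05%). Between tissues in WT they numbered 75 without the filter (41.9%), which adds 40 members, 26 above background on neither array and 14 on one. The median log2 ratio of the members between genotypes was 0.29 in iBAT with the percentile over probes above background and 0.11 to 0.12 with median centring, the series table or no filter, and -0.13 in eWAT without scaling or 0.032 without the filter. Between tissues it was, in WT and ASK1-deficient mice, -1.09 and -0.87 with normexp, -1.57 and -1.10 with quantile, -1.49 and -1.09 with loess, -2.23 and -1.79 without scaling, and -0.94 and -0.67 without the filter. It was -1.45 in WT with the percentile over probes above background, and -1.10 with median centring and -1.09 with the series table in ASK1-deficient mice. Without scaling, the median of all genes itself was -0.80 and -0.75. Relative to all genes the members were at -1.59 to -1.24 in WT and -1.11 to -0.92 in ASK1-deficient mice over these settings. Of the genes in the naming rule, the tissue difference turned for Col4a6 (-2.36 without the filter, -0.28 without scaling) and Postn (-0.28 without scaling), and without scaling 4 other members called higher turned as well. Each bound is set by the dimmer array, through its lowest signal well above background or the dim value itself.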
